A study of Mus musculus with 4 samples.

Results

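Cyclosporin A (CsA) acts on cells through a short chain of proteins, and the RNA of the genes for these proteins was followed here across 4 mouse cell populations on the way from mesoderm to cardiomyocytes. The genes were chosen by RefSeq transcript identifier and cover the cyclophilins Ppia and Ppif, the calcineurin subunits Ppp3ca, Ppp3cb and Ppp3r1, the transcription factors Nfatc1, Nfatc3 and Nfatc4, and the calcineurin regulators Rcan1 and Rcan2. Of the 10 identifiers, 9 are on the array, among 33227 identifiers in all, and the one listed for Rcan2 is not. All 9 were detected in all 4 populations, so none was lost to a filter on low signals. The rule used only identifiers and no measured value, although the members were chosen with earlier results of these data known.

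CsA binds cyclophilins, and the complex of CsA with cyclophilin A (Ppia) blocks the phosphatase calcineurin. Calcineurin, when activated by calcium and calmodulin, removes phosphates from NFAT transcription factors, which then enter the nucleus. NFAT raises transcription of Rcan1, whose protein in turn binds and restrains calcineurin. CsA also binds cyclophilin D (Ppif) in the mitochondrial matrix, which lowers the opening of the mitochondrial permeability transition pore (mPTP). None of these actions needs a change in the RNA of the target itself, and an array measures only RNA.

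Mouse embryonic stem cells with a GFP transgene driven by the cardiac αMHC promoter were differentiated without leukemia inhibitory factor, and sorted cells gave total RNA for 1 array per population. Flk1+ mesodermal precursor cells (MPCs) were taken at day 4.5. At day 5.5, cardioblasts were taken either after CsAYTE (PCBs) or after spontaneous formation without it (sfPCBs). CsAYTE combines CsA with Y27632, which inhibits ROCK, the ALK5 inhibitor EW7197 and Trolox, an antioxidant. DMSO was the vehicle. αMHC+ cardiomyocytes (M+CMs) were taken at day 10.5, and their label does not say whether CsAYTE had been given, although the study describes them as arising from PCBs. PCBs are defined in the study as PDGFRα+ and Flk1-, and they were grown from Flk1+ MPCs on mitomycin-treated OP9 stromal feeder cells. No label names CsA alone, so PCBs against sfPCBs compares all 4 agents with none.

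There are no replicates, so no test between populations was possible and no p-value is given. Each signal is scaled so that the 75th percentile of every array is 2198.4, and each log2 ratio carries only the spot error of the scanner software, which does not cover cultures or RNA preparations. Detection, the share of spots well above background, ranged from 73.3% to 76.2%, and the median SD of repeated spots was 0.054 to 0.096 on the log2 scale. Signals of different probes cannot be ranked against each other, so levels are compared only within a gene. Since each array holds the RNA of a bulk sorted population, fewer cells of a type and less RNA per cell cannot be told apart.

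The labels were set against marker genes. The summed signal of 7 cardiomyocyte markers was 6740.9 for Flk1+ MPCs, 4264.4 for sfPCBs, 275132.4 for PCBs and 1049614.8 for M+CMs. Such a sum is led by its brightest probes, and Myl7 alone was at 6095.4 in Flk1+ MPCs and 588.2 in sfPCBs. In sfPCBs against Flk1+ MPCs, 2 of the 7 were at least 2-fold higher, among them Tnnt2 (150.2 to 3175.7), and 2 were lower. Kdr, which encodes Flk1, was highest in Flk1+ MPCs at 24857.9 and still detected in PCBs at 2363.1, and Pdgfra was highest in PCBs at 9135.9. In sfPCBs, Pdgfra was at 3646.6, below the 7236.6 of Flk1+ MPCs, and Kdr was at 5510.6, above PCBs. The sfPCBs held 4 of 4 endothelial markers, with a summed signal of 3131.4 against 231.9 to 414.8 in the other populations. They also held 6 of 6 stromal markers, summing to 274491.3, against 140970.0 in PCBs, 22049.1 in M+CMs and 1941.2 in Flk1+ MPCs, where Dcn, Lum and Postn were not well above background.

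The CsA-binding proteins came first in the chain. Ppia, the abundant cytosolic cyclophilin (NM_008907), gave one of the flattest profiles. Its scaled signal was 495036.3 for Flk1+ MPCs, 379429.3 for sfPCBs, 408034.9 for PCBs and 377972.5 for M+CMs. The highest and lowest populations differed by 1.31-fold, and no neighbours in the order of levels were more than 2 spot errors apart. PCBs against sfPCBs gave a log2 ratio of 0.10 ± 0.20 (spot error), and this sign turned to -0.02 under quantile normalization. Ppia has many processed pseudogenes with nearly the same sequence, so its probe may not read Ppia alone.

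Ppif (NM_134084), the mitochondrial cyclophilin and the target behind the use of CsA for mPTP inhibition, varied more. Its scaled signal was 2013.3 for Flk1+ MPCs, 1015.5 for sfPCBs, 878.9 for PCBs and 2566.9 for M+CMs. Both day 5.5 populations were therefore low, and the first and last stages were high. The sfPCBs and PCBs differed by less than 2 spot errors (log2 ratio -0.21 ± 0.20), as did M+CMs and Flk1+ MPCs (0.35 ± 0.20). PCBs lay 2.29-fold below Flk1+ MPCs (log2 ratio -1.20 ± 0.20), and sfPCBs lay 1.98-fold below them (-0.99 ± 0.20), just inside the 2-fold threshold. M+CMs lay 2.92-fold above PCBs (log2 ratio 1.55 ± 0.20). Without scaling, the log2 ratios against Flk1+ MPCs were -1.01 in PCBs and -0.65 in sfPCBs. The source of the lower Ppif signals at day 5.5 was not tested.

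The calcineurin subunits, which form the phosphatase that the CsA-cyclophilin complex blocks, were close to flat. Ppp3ca (NM_008913), a catalytic subunit, gave 12485.2 for Flk1+ MPCs, 16763.4 for sfPCBs, 16719.4 for PCBs and 15490.1 for M+CMs. The 4 levels spanned 1.34-fold with no neighbours beyond 2 spot errors, and the day 5.5 populations were nearly equal. Ppp3cb (NM_008914), the other catalytic subunit measured, gave 6778.2, 4486.2, 4530.1 and 6887.8 in the same order. It was lower in both day 5.5 populations, with log2 ratios of -0.60 in sfPCBs and -0.58 in PCBs against Flk1+ MPCs, a step beyond 2 spot errors that had the same shape as that of Ppif. Ppp3r1 (NM_024459), the calcium-binding regulatory subunit, gave 7844.8, 6231.3, 6939.9 and 8137.9, a span of 1.31-fold without a step beyond 2 spot errors. None of the 3 subunits was 2-fold different in any comparison. Between PCBs and sfPCBs their log2 ratios were 0.00, 0.01 and 0.16, each with a spot error of 0.20.

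**Figure D1:**
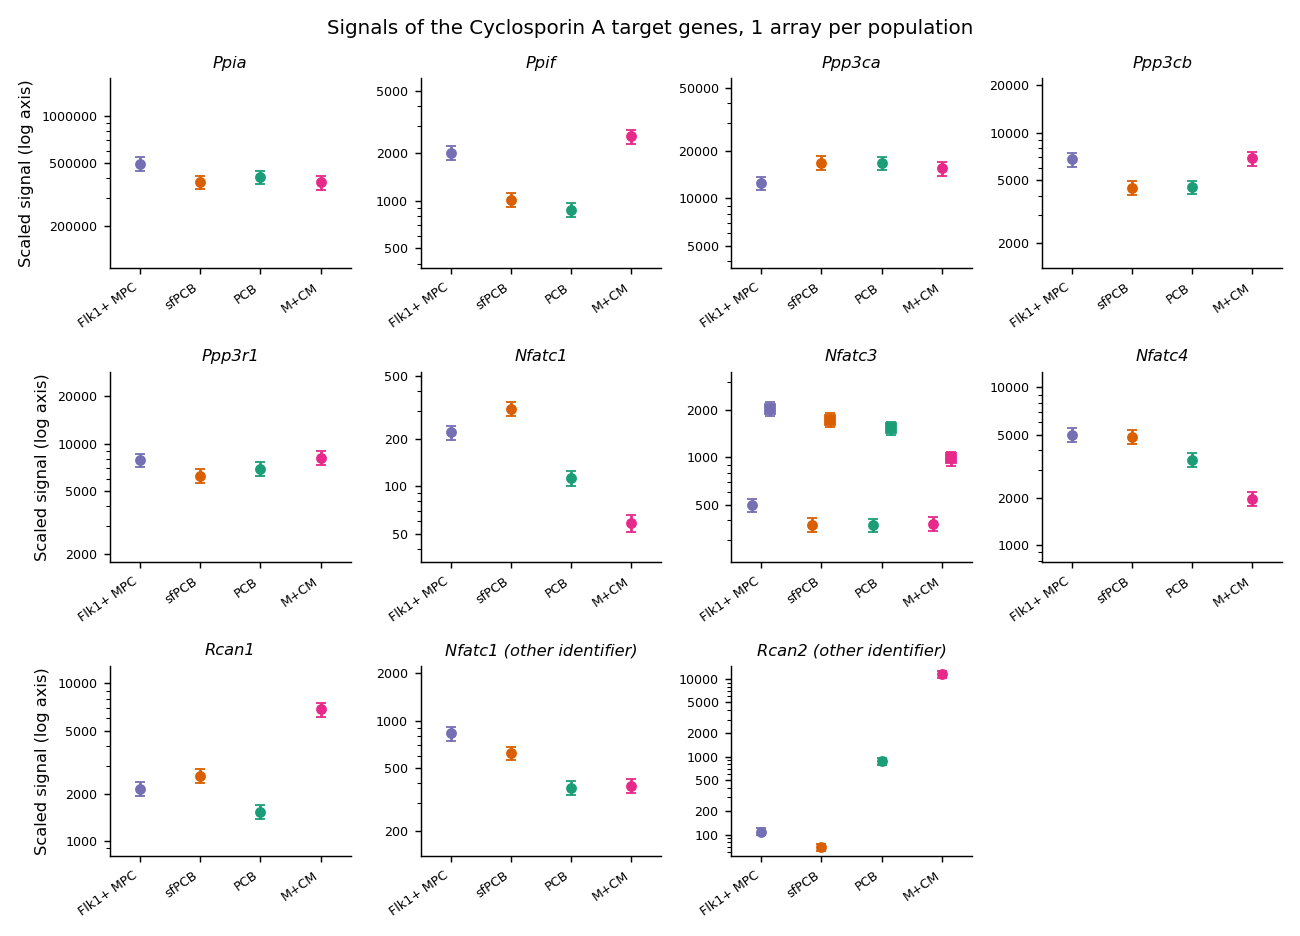
Scaled signal (log axis, arbitrary intensity units, each panel with its own range) of each gene in Flk1+ MPCs, sfPCBs, PCBs and M+CMs, with 1 array per population; bars are the spot error, and circles and squares in the Nfatc3 panel are its 2 probes. Ppia and the calcineurin subunits stay within a 1.54-fold range, Nfatc1 (listed identifier) and Nfatc4 are lowest in M+CMs, and Rcan1 is highest there. The panels marked other identifier (Nfatc1 and Rcan2) are outside the rule, and that of Nfatc1 is at 375.2 in PCBs and 387.5 in M+CMs.

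The 3 NFAT factors among the members, which calcineurin activates, had lower signals in M+CMs than in Flk1+ MPCs. Nfatc1 and Nfatc4 were lower by more than 2-fold, and Nfatc3, as the mean of its probes, by less. Nfatc1 (NM_016791), known for its part in heart valve and endocardial development, gave 219.1 for Flk1+ MPCs, 307.9 for sfPCBs, 112.3 for PCBs and 58.2 for M+CMs. Every step in this order of levels was beyond 2 spot errors. PCBs lay 2.74-fold below sfPCBs (log2 ratio -1.45 ± 0.21), and M+CMs lay 3.76-fold below Flk1+ MPCs (-1.91 ± 0.23). The endothelial markers, highest in sfPCBs as given above, moved with the Nfatc1 difference between PCBs and sfPCBs, with 4 of 4 lower in PCBs. Cdh5 was at 986.6 in sfPCBs and not well above background in PCBs, at least 63.5-fold apart, and Tie1 was at least 17.4-fold apart. The stromal markers also moved with it, with 5 of 6 at least 2-fold lower in PCBs and Postn at least 829-fold. In Flk1+ MPCs the stromal sum was 1941.2 and the endothelial sum 287.5, against 140970.0 and 231.9 in PCBs. Nfatc1, Nfatc4 and Rcan1 had higher signals in Flk1+ MPCs (219.1, 5011.7 and 2153.6) than in PCBs (112.3, 3484.1 and 1531.2). The part of endothelial or stromal cells in the lower Nfatc1, Nfatc4 and Rcan1 signals of PCBs was not tested.

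A second array identifier for Nfatc1, NM_198429, is outside the rule and was found through the gene symbol. It gave 829.9 for Flk1+ MPCs, 622.4 for sfPCBs, 375.2 for PCBs and 387.5 for M+CMs. Both Nfatc1 probes were lower in PCBs than in sfPCBs, but the second by 1.66-fold only (log2 ratio -0.73 ± 0.20). They opposed each other in sfPCBs against Flk1+ MPCs, with log2 ratios of 0.49 ± 0.21 and -0.42 ± 0.20. From PCBs to M+CMs the first gave -0.95 ± 0.23 and the second 0.05 ± 0.20. The Nfatc1 profile therefore depends on the probe, apart from a lower signal in PCBs than in sfPCBs and in both PCBs and M+CMs than in Flk1+ MPCs.

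Nfatc4 (NM_023699) was lower in PCBs than in sfPCBs and lowest in M+CMs. Its scaled signal was 5011.7 for Flk1+ MPCs, 4877.6 for sfPCBs, 3484.1 for PCBs and 1965.0 for M+CMs. Flk1+ MPCs and sfPCBs were within 2 spot errors of each other, and both later steps were beyond. PCBs lay 1.40-fold below sfPCBs (log2 ratio -0.49 ± 0.20), and M+CMs lay 2.55-fold below Flk1+ MPCs (-1.35 ± 0.20). Nfatc3 (NM_010901), measured by 2 probes, gave means of 1008.3, 804.5, 755.5 and 612.5 across Flk1+ MPCs, sfPCBs, PCBs and M+CMs. Its PCB and sfPCB levels were within 2 spot errors (log2 ratio -0.09 ± 0.14). The probes differed in M+CMs against PCBs, with log2 ratios of 0.03 ± 0.20 and -0.63 ± 0.20. In M+CMs against Flk1+ MPCs the same probes gave -0.39 ± 0.20 and -1.05 ± 0.20, so only the latter passed 2-fold.

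Rcan1 (NM_019466), the calcineurin-binding feedback regulator, had the largest gain in M+CMs among the 9 members. Its scaled signal was 2153.6 for Flk1+ MPCs, 2598.8 for sfPCBs, 1531.2 for PCBs and 6834.8 for M+CMs. PCBs were the lowest of the populations and M+CMs stood above all others. PCBs lay 1.70-fold below sfPCBs (log2 ratio -0.76 ± 0.20), which is beyond 2 spot errors but under 2-fold. M+CMs lay 4.46-fold above PCBs (2.16 ± 0.20) and 3.17-fold above Flk1+ MPCs (1.67 ± 0.20). Flk1+ MPCs and sfPCBs were within 2 spot errors.

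Rcan2, a second member of the same regulator family, was not measured through its listed identifier, NM_030598. Another identifier that RefSeq pairs with the gene, NM_207649, is on the array, and its values were seen before it was taken up, so they are a description outside the rule. It gave 109.2 for Flk1+ MPCs, 68.8 for sfPCBs, 882.8 for PCBs and 11616.7 for M+CMs, detected on all 4 arrays. Unlike Rcan1, it was higher in PCBs than in sfPCBs, by 12.8-fold (log2 ratio 3.68 ± 0.22). M+CMs lay a further 13.2-fold above PCBs (3.72 ± 0.20), which put them 106-fold above Flk1+ MPCs. The sizes depend on the treatment of the dim signals: the log2 ratio of PCBs against sfPCBs was 2.84 with normexp background correction and 2.97 with an offset of 50, and that of M+CMs against Flk1+ MPCs was 6.73, but 6.03 with normexp. The cardiomyocyte markers moved with Rcan2, since 7 of 7 had higher signals, by 2-fold or more, in PCBs against sfPCBs and in M+CMs against PCBs. The same 7 moved with Rcan1 and Ppif in M+CMs against PCBs. In M+CMs against Flk1+ MPCs 7 of 7 were at least 2-fold higher as well. There Rcan1 was higher (1.67 ± 0.20), and Ppif (0.35 ± 0.20) was within 2 spot errors. In PCBs against Flk1+ MPCs 7 of 7 were again at least 2-fold higher, but Ppif (-1.20) and Rcan1 (-0.49) were lower. In PCBs against sfPCBs Ppif (-0.21) and Rcan1 (-0.76) were also on the lower side. The part of cardiomyocyte content in the Rcan2, Rcan1 and Ppif differences was not tested.

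The sequence before the start sites of the regulators is shown because Rcan1 is the classic NFAT-driven target and Rcan1 and Rcan2 had unlike profiles. RefSeq promoter entries (GRCm38.p6) were found for 8 of the 10 genes with 12 start sites, and none for Ppp3ca and Nfatc1. The 250 bases before each start were searched on both strands for the NFAT core GGAAA, which reads as TTTCC on the other strand, and capitals mark the matches. Of the 12 stretches, 6 held the core, beside 55.6% of 32851 mouse promoters, so the core as such does not set the members apart. The 2 Rcan1 starts differed, with 0 matches before the upstream start (chr16:92466170-92466419, minus strand) and 3 before the internal one (chr16:92400079-92400328, minus strand). Such a count of 3 or more was found in 6.4% of all promoters. The files do not show which Rcan1 transcripts the probe reads. The first Rcan2 start (chr17:43801102-43801351, plus strand) held 2 matches and Nfatc4 (chr14:55824545-55824794, plus strand) held 3. The other 2 Rcan2 starts held 0, and Ppp3cb, with its narrow range of signals, also held 3. A match is a run of letters and not a shown binding site.
Rcan1 upstream start: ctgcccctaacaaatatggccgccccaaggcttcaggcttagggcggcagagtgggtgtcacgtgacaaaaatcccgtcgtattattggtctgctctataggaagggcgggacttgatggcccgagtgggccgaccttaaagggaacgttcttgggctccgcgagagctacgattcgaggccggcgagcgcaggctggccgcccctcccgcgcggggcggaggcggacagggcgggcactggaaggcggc
Rcan1 internal start: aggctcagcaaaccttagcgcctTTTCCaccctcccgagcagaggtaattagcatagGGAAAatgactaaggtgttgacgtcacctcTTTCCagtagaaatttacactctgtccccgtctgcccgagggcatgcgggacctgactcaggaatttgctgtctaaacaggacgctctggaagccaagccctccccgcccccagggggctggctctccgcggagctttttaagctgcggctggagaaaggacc
Rcan2 first start: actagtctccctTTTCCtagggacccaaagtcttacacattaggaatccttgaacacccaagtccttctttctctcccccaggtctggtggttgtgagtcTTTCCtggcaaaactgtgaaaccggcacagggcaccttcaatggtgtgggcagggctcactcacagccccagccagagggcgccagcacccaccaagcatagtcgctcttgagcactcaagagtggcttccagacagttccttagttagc
Nfatc4: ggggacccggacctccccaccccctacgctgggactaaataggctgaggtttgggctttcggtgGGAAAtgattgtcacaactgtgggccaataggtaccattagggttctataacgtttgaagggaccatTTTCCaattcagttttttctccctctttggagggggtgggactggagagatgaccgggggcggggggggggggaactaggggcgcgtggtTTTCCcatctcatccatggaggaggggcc

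Counted together, the members differed little between PCBs and sfPCBs, the comparison of day 5.5 cells with and without CsAYTE. Of the 9 members, 0 were at least 2-fold higher and 1, Nfatc1, was at least 2-fold lower in PCBs. Over all 25233 identifiers compared, 6.18% were at least 2-fold higher and 7.51% lower, so the share of members was near the background. The median log2 ratio was -0.09 for the members and 0.03 for all identifiers. The 3 members farthest from 0 after Nfatc1 were Rcan1, Nfatc4 and Ppif, all on the lower side.

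From Flk1+ MPCs to day 5.5 the members differed more in size than between PCBs and sfPCBs, and so did all identifiers. The median absolute log2 ratio of the members was 0.49 in PCBs, 0.38 in sfPCBs and 0.16 between PCBs and sfPCBs. Over all identifiers it was 0.52, 0.56 and 0.29, so the larger size was not particular to the members. In PCBs, 0 members were at least 2-fold higher and 1, Ppif, was lower, beside 12.8% and 12.1% of 25855 identifiers. In sfPCBs the counts were 0 and 0, beside 13.1% and 12.7% of 25744. The median log2 ratios of the members were -0.49 in PCBs and -0.33 in sfPCBs, and those of all identifiers were -0.20 and -0.22. Both comparisons use the same Flk1+ MPC array, so they are not independent. Nfatc1 and Rcan1 had opposite signs in them, lower in PCBs (-0.96 and -0.49) and higher in sfPCBs (0.49 and 0.27), the last within 2 spot errors.

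More members differed in cardiomyocytes. Against PCBs, 2 members (Ppif and Rcan1) were at least 2-fold higher and 0 were lower in M+CMs, beside 20.5% and 15.3% of 26135 identifiers. Nfatc1 and Nfatc4, at log2 ratios of -0.95 and -0.83, were just inside the threshold. Against Flk1+ MPCs, 1 member (Rcan1) was higher and 2 (Nfatc1 and Nfatc4) were lower, beside 22.2% and 21.5% of 26497 identifiers. These shares are again near the background, and the median log2 ratio of the members was -0.11 against PCBs and 0.02 against Flk1+ MPCs, with 0.16 and 0.00 for all identifiers.

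**Figure D2:**
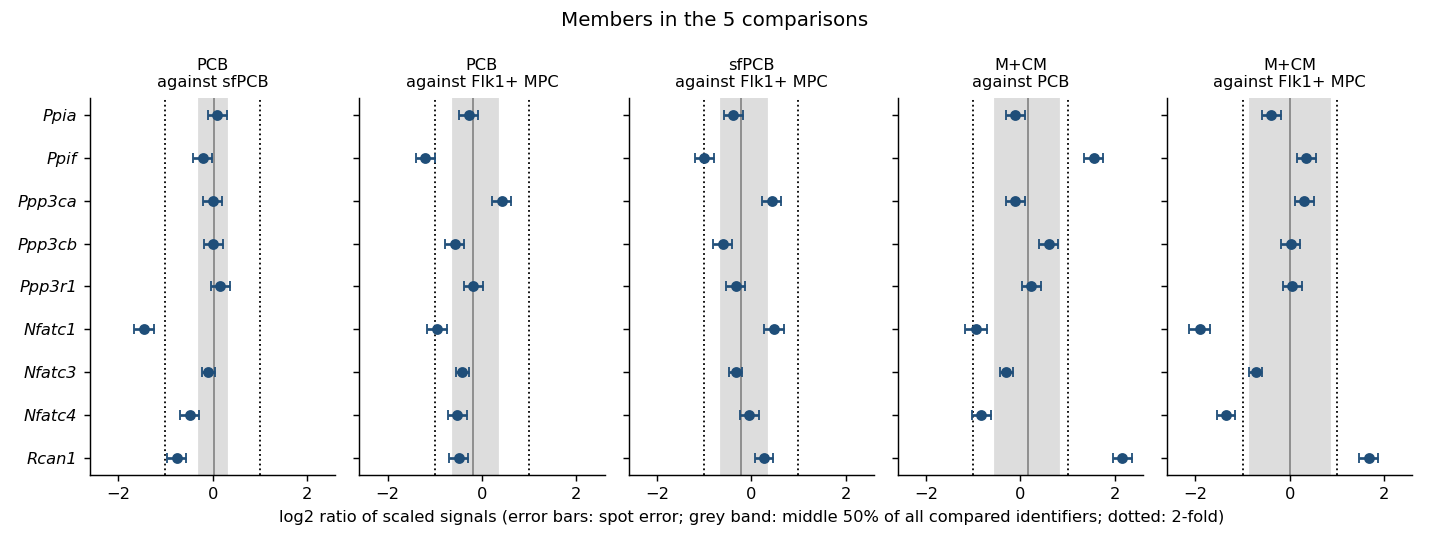
log2 ratios of scaled signals (x axis) for the 9 members in each of the 5 comparisons, with spot error bars, the middle 50% of all compared identifiers in grey, their median as a line and 2-fold as dotted lines. Only Nfatc1 passes 2-fold in PCBs against sfPCBs (-1.45), and Rcan1 reaches 2.16 in M+CMs against PCBs.

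Other genes of the pathway were taken as 7 lists with 68 genes, all on the array, of which 65 were detected in all 4 populations. In PCBs against sfPCBs, 6 of the 66 listed genes compared had ratios of at least 2 upwards and 0 downwards, beside 6.04% and 8.80% of 16824 genes with a symbol. Of these, 5 were detected in both arrays, and the other is Ppp3r2, for which only a bound below 2-fold can be given. Without scaling, 2 were lower. The 6 fall in 4 of the lists. Mef2c, a cardiac transcription factor and NFAT partner, was at 201.0 in sfPCBs and 1616.1 in PCBs (log2 ratio 3.01). Myoz1, a calcineurin-binding protein of the muscle Z-disc, was at 43.9 and 377.9 (3.10). Itpr1, a calcium release channel of the endoplasmic reticulum, was at 5017.3 and 19068.9 (1.93), and Stim1, the calcium sensor of that store, was at 2869.1 and 6989.0 (1.28). The cyclophilin-like Ppil6 was at 40.6 and 123.9 (1.61). The calcineurin B isoform Ppp3r2 was not well above background in sfPCBs and was dim in PCBs at 28.7, which puts it at least 1.9-fold higher.

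Itpr1 in PCBs stayed near its level in Flk1+ MPCs of 22707.7 and was low in sfPCBs. Stim1 was also 1.96 higher in PCBs than in Flk1+ MPCs on the log2 scale. Of the 6 genes for calcium entry and release, Itpr3 was highest in the earliest population, at 10435.3 for Flk1+ MPCs, 8093.7 for sfPCBs, 4949.2 for PCBs and 1058.8 for M+CMs. Itpr2 was lowest in Flk1+ MPCs at 1281.1 and highest in M+CMs at 4065.8. In M+CMs, Itpr1 was at 7577.5 and Stim1 at 4316.3, both below PCBs.

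**Figure D3:**
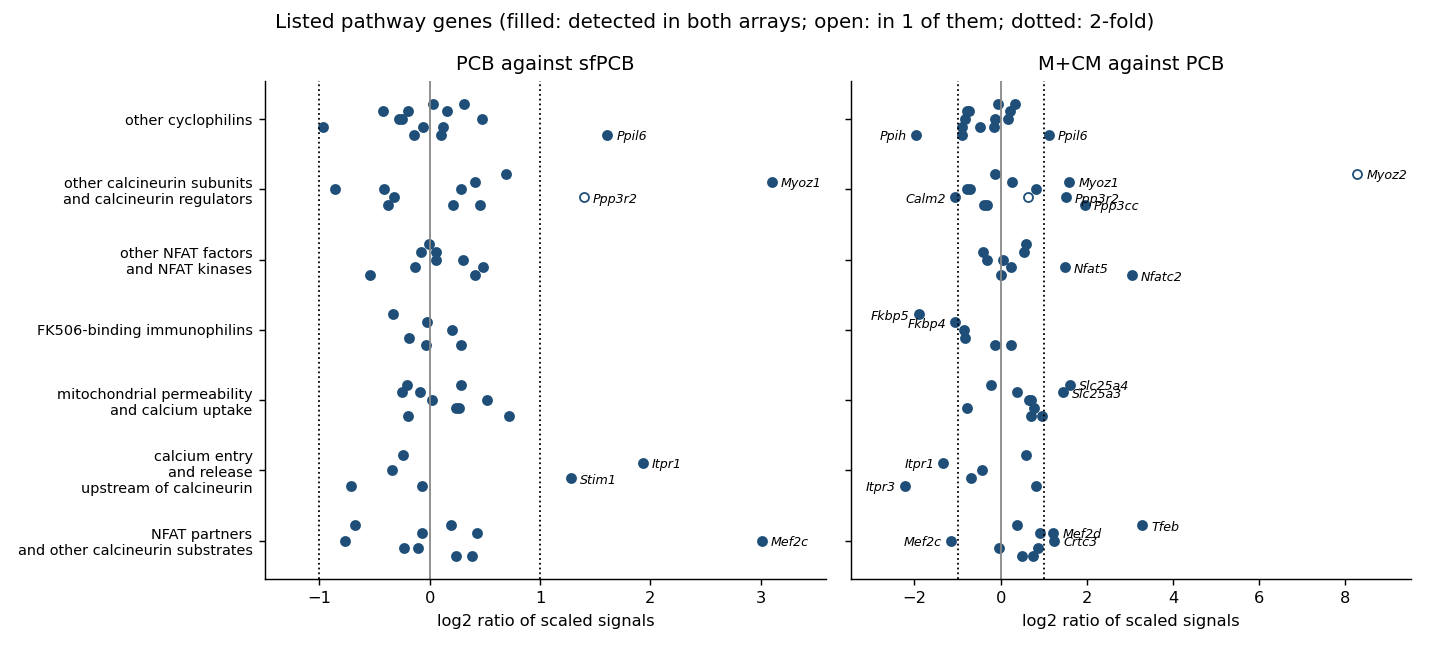
log2 ratios of scaled signals (x axis) for the genes of the 7 pathway lists (rows) in PCBs against sfPCBs and in M+CMs against PCBs; filled points were detected in both arrays, open points in 1, and dotted lines mark 2-fold. The left panel has 6 genes past the upper 2-fold line, of which Ppp3r2 (open) is bounded at 1.9-fold only, and 0 past the lower one; the right panel has 12 and 7.

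The other cyclophilins are 14 genes related to Ppia by their fold. In M+CMs against Flk1+ MPCs 0 of 14 were at least 2-fold higher and 7 were lower, beside 22.7% and 22.4% of all genes with a symbol. Ppih, part of the spliceosome, was at 313.8 in M+CMs and 1359.2 in Flk1+ MPCs, and Ppid, an Hsp90-binding cyclophilin, was at 6886.7 and 27756.8. In PCBs and sfPCBs against Flk1+ MPCs, 2 of 14 genes each were lower, beside 12.9% and 12.4% of all genes, so these counts are near the background. Cwc27 was lower in both, at 4617.8 in Flk1+ MPCs, 1796.2 in sfPCBs and 1341.5 in PCBs. The FK506-binding immunophilins, the targets of other calcineurin-blocking drugs, had 2 of 6 genes at least 2-fold lower and 0 higher in M+CMs against PCBs, beside 17.1% and 20.2% of all genes. These were the Hsp90 co-chaperones Fkbp5, from 2402.2 to 642.6, and Fkbp4, from 7199.1 to 3442.1. No gene of this list was 2-fold different in PCBs against sfPCBs, and Fkbp1a, the FK506 target FKBP12, spanned only 86021.7 to 118754.3.

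The other calcineurin subunits and regulators had 4 of 13 genes at least 2-fold higher and 1 lower in M+CMs against PCBs, beside 20.2% and 17.1% of all genes. Myoz2, the cardiac Z-disc protein that binds calcineurin, was at 1638.9 in M+CMs and not well above background elsewhere, at least 105-fold over PCBs. Ppp3cc, the third catalytic subunit, was at 446.2, 521.0, 718.3 and 2775.8 in Flk1+ MPCs, sfPCBs, PCBs and M+CMs. The catalytic genes thus differed among themselves, with Ppp3ca and Ppp3cb within 1.54-fold over the populations. Akap5, which anchors calcineurin at the membrane, was at 202.0 in Flk1+ MPCs and between 2916.8 and 4692.8 in the later populations. Rcan3 was at 139.2 in Flk1+ MPCs and 447.4 in sfPCBs. The calmodulin genes Calm2 and Calm3 were lower in M+CMs than in Flk1+ MPCs, with log2 ratios of -1.07 and -1.14.

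In M+CMs, the NFAT factors outside the member list had higher signals than in Flk1+ MPCs, whereas Nfatc1 and Nfatc4 had lower ones. Nfatc2 was at 90.9 for Flk1+ MPCs, 105.9 for sfPCBs, 72.9 for PCBs and 598.9 for M+CMs. Nfat5, the factor of the osmotic stress response that calcineurin does not control, was at 164.0 in PCBs and 460.7 in M+CMs. Of the kinases that return NFAT to the cytoplasm, Dyrk2 was lowest in Flk1+ MPCs at 797.3. It was at 1715.9 in PCBs and 1712.2 in M+CMs. Of the 9 genes of this list, 4 were at least 2-fold higher and 0 lower in M+CMs against Flk1+ MPCs, beside 22.7% and 22.4% of all genes, and none passed 2-fold in PCBs against sfPCBs.

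Around the mPTP, where Ppif acts, 2 of 10 genes were at least 2-fold higher and 0 lower in M+CMs against PCBs, with 20.2% and 17.1% over all genes, so the higher share is the background share. Both are inner membrane carriers named as pore components. Slc25a4, the heart and muscle ADP/ATP carrier, was at 164606.0 in PCBs and 498656.7 in M+CMs, and the phosphate carrier Slc25a3 was at 15005.8 and 40643.7. Slc25a5 and Hk2, a mitochondria-bound hexokinase, were lower in both day 5.5 populations than in Flk1+ MPCs, like Ppif. Both were lowest in sfPCBs, whereas Ppif differed between sfPCBs and PCBs by less than 2 spot errors. Slc25a5 was at 41888.4 for Flk1+ MPCs, 15465.0 for sfPCBs, 25421.0 for PCBs and 41458.5 for M+CMs. Hk2 was at 23694.4, 6908.1, 9897.6 and 16082.9. Tspo, an outer membrane protein, was higher at day 5.5, at 9006.8 in sfPCBs and 10637.7 in PCBs against 4063.3 in Flk1+ MPCs.

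In M+CMs against Flk1+ MPCs, 7 of 10 NFAT partners and other calcineurin substrates were at least 2-fold higher and 0 lower. The shares over all genes were 22.7% and 22.4%, and the median log2 ratio of the list was 1.20. Of the 7, Crtc3 (log2 ratio 1.07), Crtc1 (1.14), Bad (1.26) and Mef2a (1.28) were near the threshold. Median scaling shifted the median of all identifiers in this comparison by -0.27, so the count depends on the scaling. Against PCBs, 3 of the 10 were higher and 1 lower, beside 20.2% and 17.1% of all genes. Tfeb, a lysosomal transcription factor that calcineurin dephosphorylates, was at 77.9 for Flk1+ MPCs, 224.6 for sfPCBs, 139.8 for PCBs and 1362.3 for M+CMs. Mef2c peaked in PCBs and was at 729.0 in M+CMs and 19.8 in Flk1+ MPCs. Crtc3, a CREB coactivator, was at 710.1 in PCBs and 1682.6 in M+CMs. Gata4, the cardiac partner of NFAT, was highest in Flk1+ MPCs at 18271.0 and lowest in sfPCBs at 6172.5.

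Over all 68 listed genes, some shares were near those of all genes and others were not. In PCBs against sfPCBs 9.1% were at least 2-fold higher and 0.0% lower, beside 6.0% and 8.8% of genes with a symbol. In PCBs against Flk1+ MPCs, 7 were at least 2-fold higher and 5 lower of 67 compared (10.4% and 7.5%), beside 14.2% and 12.9%. The 5 became 3 without scaling and 2 under quantile normalization. In sfPCBs against Flk1+ MPCs the counts were 6 and 7 of 67 (9.0% and 10.4%), beside 14.9% and 12.4%. The 7 include Ppp3r2, not well above background in sfPCBs and bounded at 1.5-fold. Without scaling the 6 became 12. In M+CMs against PCBs they were 12 and 7 of 68 (17.6% and 10.3%), beside 20.2% and 17.1%, and without scaling the 7 became 13. In M+CMs against Flk1+ MPCs they were 21 and 13 of 68 (30.9% and 19.1%), beside 22.7% and 22.4%. Under median scaling they were 13 and 15, so the balance of the 2 directions depends on the scaling.

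Genes with the profile most like that of a member were sought for the 3 members with the widest range, over the 4 populations and 15138 transcripts detected throughout. With 4 values a profile, likeness is a description only. Nfatc1 was most like Tmem45a, at 1411.5 for Flk1+ MPCs, 1968.8 for sfPCBs, 680.3 for PCBs and 360.5 for M+CMs, with a root mean square log2 difference of 0.036 after centring. The next were 1700017B05Rik (0.094) and Lcp1 (0.124), the leukocyte actin-bundling protein. Rcan1 was most like Pde6g (0.050), BC049715 (0.064) and Ephx4 (0.066). Ppif was most like Kbtbd11 (0.017), Wwc1 (0.039) and Fam171a2 (0.050).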

How the data were processed

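Total RNA of 4 mouse populations was measured on 1-colour (Cy3) Agilent arrays of 1 slide, 1 array each. The intensity of each spot was deposited as Feature Extraction 11.5.1.1 wrote it, and its background-subtracted processed signal is not normalized between arrays; per the file headers the design is annotated on mm9. A deposited series table holds log2 values of the same processed signal, unscaled (column medians 6.88 to 7.40), and was used as an alternative.

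Control spots and spots marked non-uniform, as population outliers or by hand were left out (87 to 144 of 43020 an array), and no spot was saturated. Each array was scaled to a common 75th percentile (factors 0.867 to 1.116) and log2 transformed without an offset. Spots, then probes detected in at least 1 array, were averaged per identifier. A probe was detected where at least 0.5 of its spots were well above background. A comparison covered identifiers detected in at least 1 of its arrays, and 2-fold was counted in each direction. For a probe not well above background, the lower bound uses the higher of its own signal and the lowest detected signal of that array (15.1 to 15.9). Errors come from the deposited spot error. RefSeq tables named 20503 of 20846 transcript identifiers (98.4%).

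All 10 members and, in the pathway lists, genes at least 2-fold different in PCBs against sfPCBs and the 2 largest in each direction per list and comparison were named. Members and lists were chosen with earlier results of these data known. The counting code was run on simulated arrays, where 200 of 200 changed identifiers of 8000 were recovered. Only bright identifiers were changed there, well past 2-fold and with little noise. The run therefore checks the code and not the counts in these data. The alternatives were 9 settings of scaling, background, offset, detection and probe choice, run with R 4.3.3, limma 3.58.1, Python 3.11.15 and pandas 2.3.3; normexp used the median spot intensity in place of the mean.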

Additional observations from a re-analysis of the deposited data

Results flagged for a closer look

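Nfatc1 and Rcan1 had log2 ratios of opposite sign in the 2 day 5.5 populations against Flk1+ MPCs. The log2 ratio of Nfatc1 was -0.96 in PCBs and 0.49 in sfPCBs, and that of Rcan1 was -0.49 and 0.27, the last within 2 spot errors and 0.08 under median scaling. Each rests on 1 array a population with a shared Flk1+ MPC array, and the difference was not tested. The second Nfatc1 probe was lower in both (-1.15 and -0.42).

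Rcan2 gave a signal through an identifier outside the list, at 109.2 for Flk1+ MPCs, 68.8 for sfPCBs, 882.8 for PCBs and 11616.7 for M+CMs. The lowest of these is above the lowest detected signal of the sfPCB array (15.1).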

How the results depend on the processing

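With 1 array a population, neither cultures nor arrays have a spread here, and spot error is the only error. Of 495 log2 ratios under the 9 alternatives (9 members, the second Nfatc1 identifier and the Rcan2 identifier), 408 moved by less than their spot error, and none that was 2-fold or more turned its sign. Sign differences (29) were in ratios under 2-fold, as for Ppia in PCBs against Flk1+ MPCs (-0.28, and 0.11 under quantile normalization). The log2 ratio of Nfatc1 in PCBs against sfPCBs was -1.11 with normexp and -1.61 without scaling, and that of Rcan1 in M+CMs against PCBs ranged from 1.95 to 2.22.

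Counts of members just inside the threshold moved. In M+CMs against PCBs the count lower was 0, but 1 under median scaling and under quantile normalization and 2 without scaling and in the series table. In PCBs against Flk1+ MPCs it was 1, but 2 under median scaling and under quantile normalization. In sfPCBs against Flk1+ MPCs it was 0, but 1 under median scaling and under quantile normalization. The other 82 of 90 member counts stayed within 1.5 times. Of the 90 counts of listed genes, 77 did. The largest move of a log2 ratio was 0.84, for Rcan2 in PCBs against sfPCBs (3.68, and 2.84 with normexp).

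Without scaling, the median of all identifiers shifted by 0.34 in sfPCBs against Flk1+ MPCs, and higher calls went from 50.8% to 70.5% of calls; under median scaling they were 37.5%. In M+CMs against PCBs they went from 57.3% to 45.8% without scaling, in M+CMs against Flk1+ MPCs from 50.7% to 39.3% under median scaling, and in PCBs against Flk1+ MPCs from 51.4% to 61.6% without scaling. Of all identifiers in PCBs against sfPCBs, 1559 were at least 2-fold higher and 1896 lower, and with an offset of 50 these were 676 and 1011. No paired analysis was possible because each population has 1 array. Dim signals limit the ratios of Rcan2 (68.8 in sfPCBs) and Nfatc1 (58.2 in M+CMs), beside lowest detected signals of 15.1 and 15.3 on those arrays.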
